A study of Homo sapiens with 18 samples.

Results

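The genes described here are the mitochondrially encoded subunits of cytochrome c oxidase (complex IV), complex III and ATP synthase. The rule for choosing them named 6 Ensembl transcripts: MT-CO1 (ENST00000361624), MT-CO2 (ENST00000361739), MT-CO3 (ENST00000362079), MT-CYB (ENST00000361789), MT-ATP6 (ENST00000361899) and MT-ATP8 (ENST00000361851). It kept a transcript only where its listed length equalled the length of its protein less a trim of 20 codons shared by the set. All 6 transcripts were present among the 26679 entries of the footprint tables, and 5 passed the length rule. The entry listed for MT-CO1 was 1 codon off (494 codons against 493) and was left out of the counts, so its values are given apart. RefSeq gives that gene 514 whole codons, where the rule has a protein of 513 residues. For MT-CO2, which passed, the same 2 values are 228 and 227. In the mRNA tables, MT-CO2, MT-ATP6 and MT-ATP8 had usable rows, whereas MT-CO3, MT-CYB and the entry listed for MT-CO1 had no length and 0 counts in every library and were treated as not measured.

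Human mitochondria keep a small genome of their own, and the proteins it encodes are core, membrane-embedded subunits of the respiratory chain. They are made inside the organelle by mitochondrial ribosomes, in contrast to the nuclear-encoded subunits of the same complexes, which are made by cytosolic ribosomes and imported. MT-CO1, MT-CO2 and MT-CO3 form the catalytic core of complex IV, MT-CYB is the cytochrome b of complex III, and MT-ATP6 and MT-ATP8 belong to the proton-conducting part of ATP synthase.

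Ribosome-protected fragments (footprints) and mRNA were counted in the human embryonic kidney line HEK293. The 3 lines were untreated HEK293 (WT), a clonal line made with Cas9 and a guide against UFM1 (UFM1-KO), and a clonal line made in the same way for UFSP2 (UFSP2-KO). UFM1 is a ubiquitin-like modifier that cells couple to target proteins, and UFSP2 cleaves it off again. Footprints came from a cytosolic fraction and from a membrane fraction, the latter being what a Triton lysis released from the pellet that remained after the cytosol had been taken, and mRNA came from whole-cell lysates. Each of the 9 groups had 2 libraries, marked a and b. Each knockout was a single clone, so a knockout and other differences between clones cannot be told apart. The labels do not say that the libraries of a group came from separate cultures, and p-values here measure only the spread between these libraries. Total counts ran from 2848544 to 11388755 in the membrane footprint libraries, from 1393032 to 6666021 in the cytosol libraries and from 37451244 to 68675420 in the mRNA libraries. No table used here pairs these transcript IDs with gene names beyond the 6 listed, so the transcripts of UFM1 and UFSP2 were not looked up, neither knockout was checked against its own transcript, and other genes of these complexes are not analysed here.

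On the mitochondrial chromosome (GRCh38, RefSeq annotation of GRCh38.p14) MT-CO2 lies at 7586 to 8269, MT-ATP8 at 8366 to 8572, MT-ATP6 at 8527 to 9207, MT-CO3 at 9207 to 9990 and MT-CYB at 14747 to 15887. All are intron-free coding genes. MT-ATP8 and MT-ATP6 share 46 bp (8527 to 8572) and are carried on the same RNA, and MT-ATP6 and MT-CO3 share 1 bp, so reads in the shared stretches cannot be assigned to one gene. RefSeq also lists nuclear pseudogenes named after each member: 34 for MT-CO2, 47 for MT-CO3, 45 for MT-CYB, 31 for MT-ATP6 and 4 for MT-ATP8. How reads shared with such copies were counted is not given in the sources used here, so the counts of all members carry that uncertainty.

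Footprints on all 5 members lay almost wholly in the membrane fraction. In WT, MT-CO2 had 5926 and 12091 membrane footprints in libraries a and b, against 12 and 10 cytosol footprints. MT-CO3 had 4655 and 12428 in the membrane libraries and 15 and 9 in those of the cytosol. MT-CYB had 3357 and 8125 against 13 and 4. The 2 ATP synthase subunits showed the same picture, with 2295 and 6781 membrane footprints against 5 and 6 in the cytosol for MT-ATP6. MT-ATP8, the shortest member, had 773 and 2102 membrane footprints against 1 and 0 in the cytosol. A count of 0 in WT cytosol library b allows a share of up to 4.5e-05% of that library (3 counts, counting error only). The fractions did not overlap for any member in any line, and how many of all features did so was not counted.

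Scaled to total counts and pooled over the libraries of a line, the ratio of membrane to cytosol footprints in WT was 432 for MT-CO2 (95% exact interval of counting error 285 to 689), 375 for MT-CO3 (252 to 586), 356 for MT-CYB (222 to 612) and 435 for MT-ATP6 (243 to 872). These intervals overlap one another, so no order among the members was detectable at this depth. MT-ATP8 rested on 1 cytosol count in WT, and its ratio of 1516 had an interval of 272 to 59900. In UFM1-KO the ratio was 234.5 (161 to 356) for MT-CO2, 286 (194 to 442) for MT-CO3, 237 (156 to 378) for MT-CYB and 300.3 (167.7 to 602) for MT-ATP6. In UFSP2-KO the same 4 ratios were 240.5 (171 to 350), 196 (137 to 293), 253 (167 to 403) and 158 (100.7 to 262). Each ratio in the knockout lines was below that of the same gene in WT, and the test of that difference is given further on.

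All 5 members were called higher in the membrane fraction in each line (edgeR quasi-likelihood test, Benjamini-Hochberg adjusted p under 0.05, two-sided, over 11065 transcript features). Of all features, 25.3% were called higher in WT, and the same share was 23% for UFM1-KO and 24.8% for UFSP2-KO. The fitted log2 ratios of the members had a median of 8.76 in WT (range 8.43 to 10.35), of 8.35 for UFM1-KO (range 8.04 to 9.38) and of 7.86 for UFSP2-KO (range 7.28 to 8.76), against medians over all features of -0.02, 0.02 and 0.01. For MT-CO2 in WT the log2 ratio was 8.81 (SE 0.48, edgeR adjusted p = 1.14e-14).

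**Figure D1:**
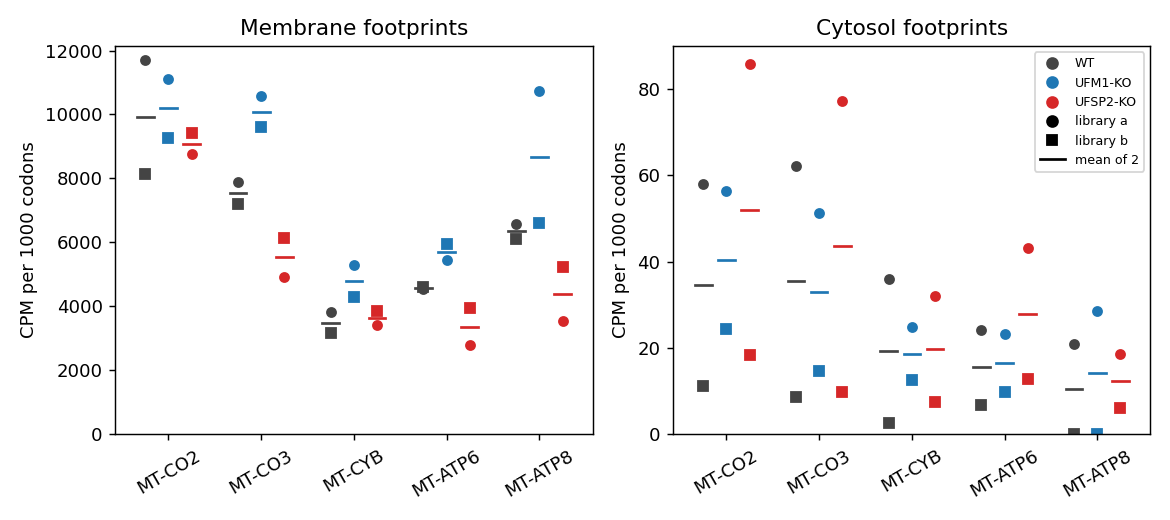
Footprints per library on the 5 members, as CPM divided by listed length in units of 1000 codons. CPM are counts scaled by edgeR to the counts of merged features. The membrane fraction is on the left and the cytosol on the right, at a far smaller scale. Circles are library a, squares are library b, bars are the mean of 2 libraries and colours are the lines. In the membrane fraction every library lies between 2791 and 11698, and in the cytosol between 0 and 85.7.

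**Figure D2:**
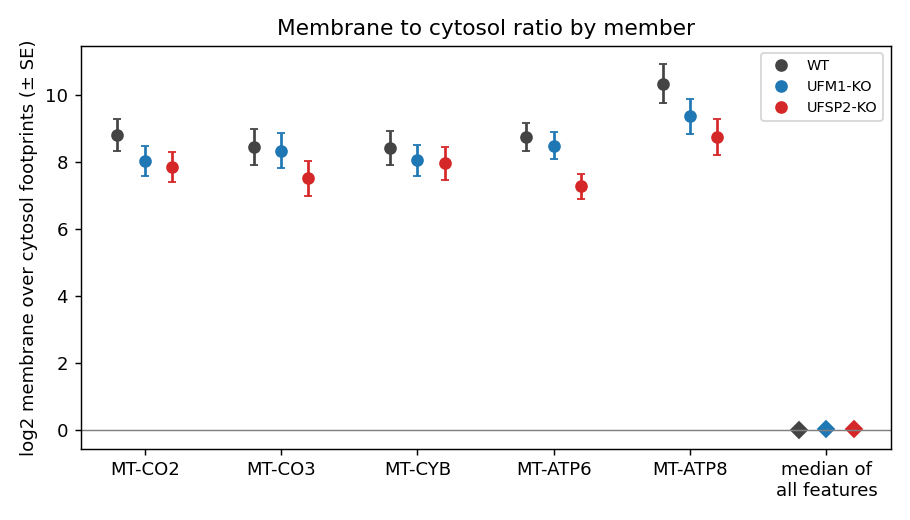
Log2 ratio of membrane to cytosol footprints for each of the 5 members (circles, with bars of 1 SE from the edgeR fit) and the median of all features tested (diamonds), with lines of cells in colour. The members lie between 7.28 and 10.35 and the medians of all features between -0.02 and 0.02.

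Within the membrane fraction, levels were compared per length, as CPM per 1000 codons. In WT the order was MT-CO2 at 9925 ± 2507 (SD, n = 2), MT-CO3 at 7545 ± 491, MT-ATP8 at 6346 ± 331, MT-ATP6 at 4573 ± 29.9 and MT-CYB at 3480 ± 467. The gap between MT-CO2 and MT-CO3 was smaller than the SD of MT-CO2, whereas each later gap in WT was larger than the larger SD of the pair. The order was the same in UFM1-KO, with means of 10196, 10085, 8670, 5704 and 4796, where the gaps from MT-CO2 to MT-CO3 and from MT-CO3 to MT-ATP8 were within the spread. The gap from MT-ATP8 to MT-ATP6 there was 2966, against a larger SD of 2920. In UFSP2-KO MT-CO2 was at 9089 ± 457 and stood above MT-CO3 at 5529 ± 852 by more than the spread, and the neighbours among MT-CO3, MT-ATP8, MT-CYB and MT-ATP6 were within theirs. MT-ATP6 came last there, at 3365 ± 812, behind MT-CYB at 3642 ± 315.

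The entry listed for MT-CO1 had the most footprints of the 6. WT libraries a and b gave membrane levels of 16236 and 12222 CPM per 1000 codons, UFM1-KO gave 20128 and 15593, and UFSP2-KO gave 8567 and 9020. The UFSP2-KO libraries lay below both of the other lines, which overlapped each other. Its cytosol counts were 35 and 22 for WT, 65 and 33 for UFM1-KO, and 76 and 39 for UFSP2-KO, and it was called higher in the membrane fraction in each line by edgeR, at log2 ratios of 9.01, 8.22 and 7.04.

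Levels in the membrane fraction were compared between lines next. These are bulk lysates, in which the number of mitochondria per cell and the RNA or ribosomes per mitochondrion cannot be told apart. For MT-CO2, WT libraries a and b gave 2421 and 1688 CPM, UFM1-KO gave 2302 and 1919, and UFSP2-KO gave 1815 and 1948. All 3 lines overlapped for this gene.

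For MT-CO3 the WT values were 1902 and 1735 CPM, the UFM1-KO values 2547 and 2314, and the UFSP2-KO values 1187 and 1478. Both UFM1-KO libraries were above WT and both UFSP2-KO libraries were below it. MT-CYB was at 1372 and 1134 CPM (WT), 1903 and 1550 CPM (UFM1-KO) and 1231 and 1391 CPM (UFSP2-KO). For MT-CYB UFM1-KO lay above the other lines, and UFSP2-KO overlapped WT.

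MT-ATP6 gave 938 and 946 CPM with WT, 1123 and 1227 with UFM1-KO, and 575 and 811 with UFSP2-KO. The 3 lines did not overlap, with UFM1-KO highest and UFSP2-KO lowest. MT-ATP8 gave 316 and 293 CPM with WT, 515 and 317 with UFM1-KO, and 169.3 and 251 with UFSP2-KO. The order of the lines was the same, but the lower UFM1-KO library barely exceeded the higher WT library. How many of all features separate the lines as these members do was not counted, and the tests follow.

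No member passed the test in UFM1-KO against WT, where 1.26% of all features were called. The log2 changes were 0.04 (SE 0.29) for MT-CO2, 0.42 (SE 0.34) for MT-CO3, 0.46 (SE 0.31) for MT-CYB, 0.32 (SE 0.24) for MT-ATP6 and 0.46 (SE 0.25) for MT-ATP8, with a median over all features of 0.05. edgeR found 0 of 5 members at an unadjusted p under 0.05, and DESeq2 called 0 of 5. In UFSP2-KO against WT, where 11.1% of features were called, again none of the 5 passed. The log2 changes were -0.13 (SE 0.29), -0.45 (SE 0.34), 0.07 (SE 0.31), -0.44 (SE 0.24) and -0.53 (SE 0.26) in the same order, with a median over all features of 0.01. MT-ATP8 was the 1 member at an unadjusted p under 0.05 in edgeR (adjusted p = 0.19), and DESeq2 called 0 of 5. With only these 2 lines in the edgeR fit, 3 of the 5 were called lower in UFSP2-KO, namely MT-CO3, MT-ATP6 and MT-ATP8. The entry listed for MT-CO1 was at -0.69 (SE 0.41) and not called with all lines in the fit. It too was called lower with only these 2 lines (edgeR adjusted p = 3.86e-05).

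Between the knockout lines edgeR called the 2 ATP synthase subunits. MT-CO3 and the entry listed for MT-CO1, which were not called, had larger log2 differences than MT-ATP6. MT-ATP8 footprints were 1.98-fold higher in UFM1-KO, a log2 difference of 0.99 (SE 0.26, edgeR adjusted p = 0.00671), and MT-ATP6 was 1.69-fold higher (log2 0.76, SE 0.24, edgeR adjusted p = 0.0239). Beside these 2 of 5 members, 21.4% of all features were called in this comparison and 11.2% were called higher, so calls were common here. MT-CO3 (log2 0.87, SE 0.34, edgeR adjusted p = 0.0667), MT-CYB (0.40, SE 0.31) and MT-CO2 (0.17, SE 0.29) did not pass, and the entry listed for MT-CO1 did not either (1.02, SE 0.41, edgeR adjusted p = 0.0775). MT-CO3 did pass in edgeR with library size as the only scaling (adjusted p = 0.0452), with no filter on low counts (0.016) and with only these 2 lines in the fit (5.3e-05). The entry listed for MT-CO1 passed with no filter (edgeR adjusted p = 0.00836) and with only these 2 lines (3.88e-06), and MT-CYB with only these 2 lines (0.0426). Since MT-ATP6 and MT-ATP8 overlap in sequence, their calls are not independent. DESeq2 called MT-ATP8 (adjusted p = 0.0313) and not MT-ATP6 (0.526). Both edgeR calls were lost when UFM1-KO library a was left out (edgeR adjusted p = 0.0835 for MT-ATP6 and 0.22 for MT-ATP8) or UFSP2-KO library a (0.285 and 0.147), and without UFM1-KO library b MT-ATP6 was lost (0.132).

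**Figure D3:**
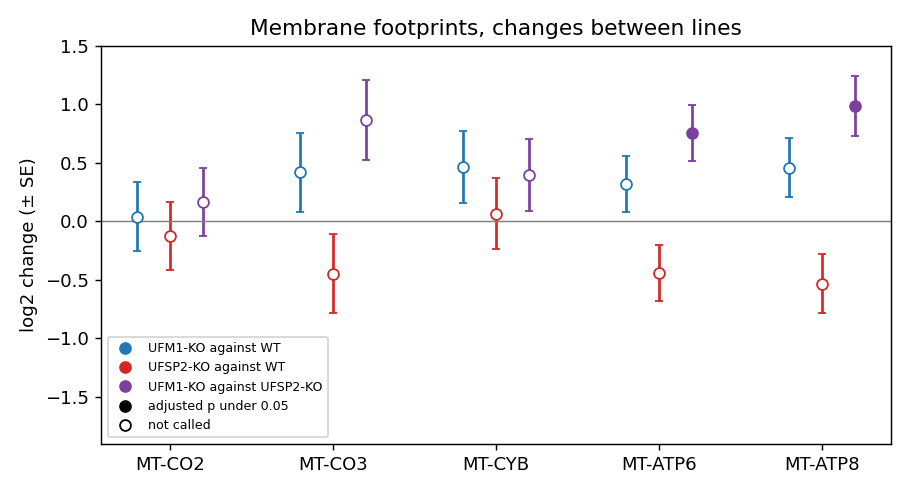
Log2 change of membrane footprints between lines for each member, with bars of 1 SE from the edgeR fit; filled points passed an adjusted p under 0.05. The filled points are MT-ATP6 at 0.76 and MT-ATP8 at 0.99, both in UFM1-KO against UFSP2-KO.

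Shares, here and in the cytosol, were taken of the counts summed over all 26679 footprint entries. Summed over the 5 members, the WT libraries gave 0.437% and 0.365% in the membrane fraction. The UFM1-KO libraries gave 0.519% and 0.479%, and the UFSP2-KO libraries 0.305% and 0.349%. The means were 0.401% ± 0.051, 0.499% ± 0.028 and 0.327% ± 0.031 (SD, n = 2 each). No pair of lines overlapped, but with 2 libraries against 2 the exact two-sided permutation p was 0.333 for each pair, the smallest this design allows. The share in UFM1-KO was 1.25 times that in WT, and the share in UFSP2-KO was 0.816 times that in WT. Entries with identical counts each add to the denominator, so the percentages depend on it. With such entries merged they were 0.647% and 0.542% for WT, 0.761% and 0.707% for UFM1-KO, and 0.456% and 0.525% for UFSP2-KO.

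The make-up of these footprints was described by each member's part of their sum. The MT-CO2 part of the 5 members' membrane footprints was 34.9% and 29.1% for WT, 27.4% and 26.2% for UFM1-KO, and 36.5% and 33.1% for UFSP2-KO. The MT-CYB part was 19.7% and 19.6% for WT, 22.7% and 21.2% for UFM1-KO, and 24.7% and 23.7% for UFSP2-KO. The MT-CO3 part was 27.4% and 29.9% for WT, 30.35% and 31.6% for UFM1-KO, and 23.9% and 25.1% for UFSP2-KO. The lines did not overlap for MT-CYB or MT-CO3, but their order differed between these genes. The parts of a library add to a fixed total, so they are not independent. How often such a separation arises among other features was not counted. MT-ATP8 held between 3.4% and 6.14% in every library.

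**Figure D4:**
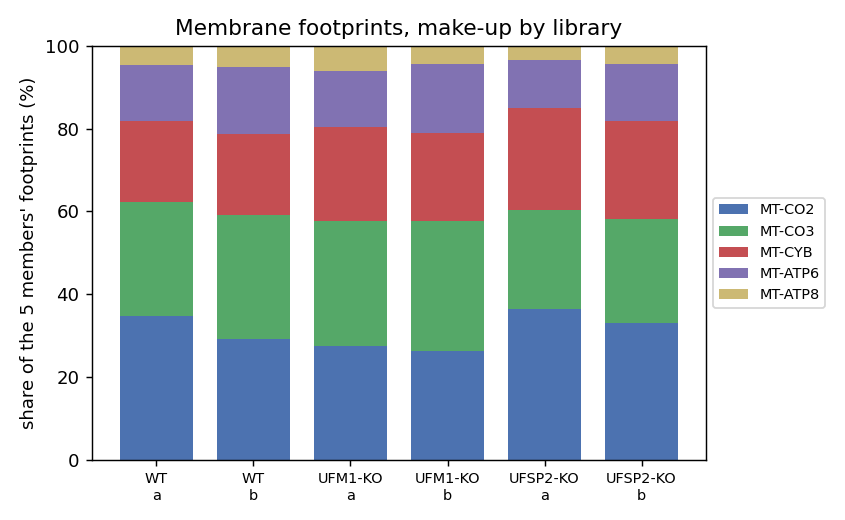
Share of the 5 members' membrane footprints held by each member, by library (a and b of each line), with each bar adding to 100%. MT-CO2 holds between 26.2% and 36.5% and MT-ATP8 between 3.4% and 6.14%.

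In the cytosol the members had between 0 and 21 counts per library. The UFM1-KO libraries a and b held 17 and 10 counts of MT-CO2, 18 and 7 of MT-CO3, 13 and 9 of MT-CYB, 7 and 4 of MT-ATP6, and 2 and 0 of MT-ATP8. The count of 0 allows a share of up to 0.000112% of its library. The UFSP2-KO libraries held 20 and 13 counts of MT-CO2, 21 and 8 of MT-CO3, 13 and 9 of MT-CYB, 10 and 9 of MT-ATP6, and 1 and 1 of MT-ATP8. MT-ATP8 thus had at most 2 counts in any cytosol library. Summed over the 5, the cytosol share was 0.0033% and 0.000435% for WT, 0.00299% and 0.00112% for UFM1-KO, and 0.00409% and 0.000743% for UFSP2-KO. Library a was the higher of the pair in every line and the 3 lines overlapped (exact permutation p = 1, 0.667 and 1 for UFM1-KO against WT, UFSP2-KO against WT and UFM1-KO against UFSP2-KO). The spread within a line was thus larger than the difference between lines. edgeR called 0 of 5 members in each of the 3 cytosol comparisons between lines, beside 0.85%, 3.99% and 12% of all features, with 0 at an unadjusted p under 0.05 and 0 called by DESeq2. The log2 changes against WT ran from 0.54 to 1.43 in UFM1-KO and from 0.50 to 1.06 in UFSP2-KO, with SEs from 0.64 to 1.77. Without WT cytosol library b all 5 values were below 0 in both knockouts. At this depth a difference of that size was not detectable. The entry listed for MT-CO1 was at 1.12 (SE 0.65) in UFM1-KO and 1.27 (SE 0.64) in UFSP2-KO against WT, and edgeR called neither with all libraries. Over the settings these values ran from -0.24 to 2.52 and from -0.21 to 2.66, both highest without WT cytosol library a.

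Whether the distribution over the fractions differed between lines was tested as an interaction. With all libraries, the change was below 0 for all 5 members in UFM1-KO less WT, with log2 values from -0.97 to -0.12 and a median of -0.37, and in UFSP2-KO less WT, with values from -1.59 to -0.46 and a median of -0.95, against medians over all features of 0.02 and -0.03. None of the 5 was called in either by edgeR, where 0.00904% of features were called in each. At an unadjusted p under 0.05 there were 0 of 5 in UFM1-KO and 1 of 5 in UFSP2-KO, MT-ATP6 at -1.47 (SE 0.69), and DESeq2 called 0 of 5 in both. The cytosol side of every ratio rests on the counts given above, and the direction rests on single cytosol libraries for all members but MT-ATP6 in UFSP2-KO. That value ran from -2.64 to -0.26 over the settings. Without WT cytosol library b all 5 values were positive in UFM1-KO (0.63 to 1.46) and 4 of 5 in UFSP2-KO (0.46 to 1.39). Without UFM1-KO cytosol library a 4 of 5 were positive (0.12 to 2.93), without UFSP2-KO cytosol library a 3 of 5 (0.10 to 0.64), and DESeq2 gave positive values for 2 of 5 in UFM1-KO (0.35 and 0.40). The entry listed for MT-CO1 changed by -0.79 (SE 0.77) in UFM1-KO and -1.97 (SE 0.76) in UFSP2-KO. edgeR called neither, with an unadjusted p of 0.016 in UFSP2-KO. Over the settings its value ran from -2.20 to 0.57 in UFM1-KO and from -3.35 (without WT cytosol library a) to -0.48 in UFSP2-KO.

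For mRNA the 3 measured members differed in level per length. MT-CO2 was at 12624 ± 796 CPM per 1000 codons in WT (SD, n = 2), MT-ATP6 at 3044 ± 586 and MT-ATP8 at 346.5 ± 78.4, and each gap was larger than the spread. MT-ATP6 and MT-ATP8 are carried on the same RNA, and their mRNA values per length nevertheless differed in all 3 lines, at 6716 against 1550 in UFM1-KO and 3008 against 438 in UFSP2-KO. Footprints per length in the membrane fraction, set over mRNA per length, gave 0.786 for MT-CO2, 1.502 for MT-ATP6 and 18.3 for MT-ATP8 in WT. The corresponding values were 0.547, 0.849 and 5.60 for UFM1-KO, and 0.713, 1.12 and 9.98 for UFSP2-KO. MT-ATP8 had the highest ratio in each line, and its value differed between lines by more than 1.5 times. In WT its membrane footprints per length were 6346 against 4573 for MT-ATP6, so the gap in the ratio lay mostly on the mRNA side. As both genes are on the same RNA, their ratios cannot be read as footprints per RNA molecule. Why their mRNA values differ was not tested. The UFM1-KO values include an mRNA library, described next, that stood apart from the others. CPM was taken over merged features, for mRNA only among entries matched to the footprints, and not over the total counts given above. In WT library a the measured members held 0.124% of all mRNA counts, and 0.341% with entries merged. All members held 0.437% of membrane footprints there, and 0.6465% with entries merged. The denominators thus differ between the assays, and the size of each ratio depends on them. The 2 assays were also made with different library protocols and from different lysates, so these ratios only describe this data set.

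MT-CO2 mRNA was at 2743 and 2509 CPM (WT), 5085 and 2664 CPM (UFM1-KO) and 2403 and 2903 CPM (UFSP2-KO). MT-ATP6 mRNA was at 544 and 716 CPM (WT), 2085 and 695 CPM (UFM1-KO) and 463 and 783 CPM (UFSP2-KO). MT-ATP8 mRNA was at 19.7 and 14.3 CPM (WT), 138 and 13.7 CPM (UFM1-KO) and 12.3 and 30.7 CPM (UFSP2-KO). For all 3 members UFM1-KO library a stood above the 5 other mRNA libraries, and UFM1-KO library b lay within or next to the range of the other lines.

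**Figure D5:**
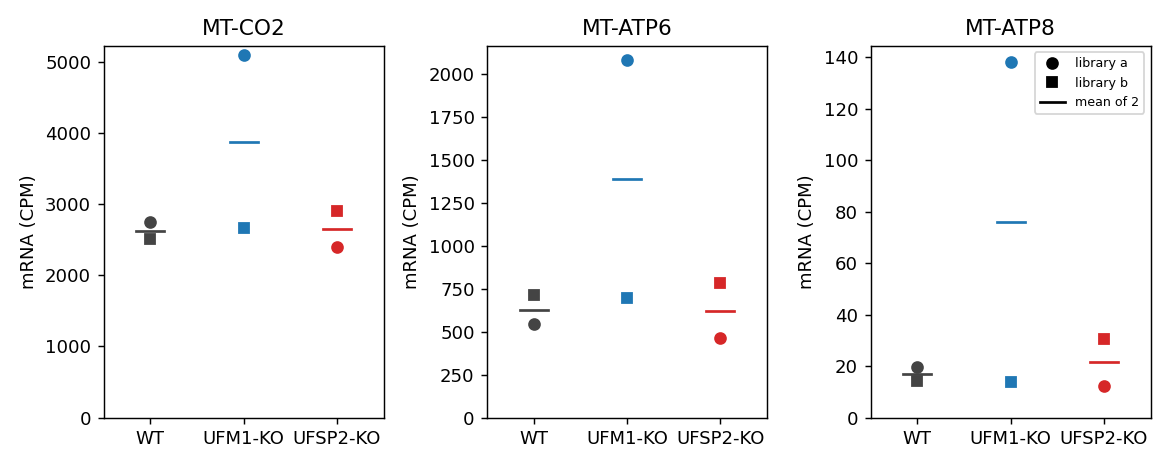
mRNA level (CPM) of the 3 members with usable rows, by line. Circles are library a, squares are library b and bars are the mean of 2 libraries. CPM was scaled to the counts of merged features among entries matched to the footprints, not to the total counts. UFM1-KO library a is the highest for each gene, at 5085, 2085 and 138 CPM, and UFM1-KO library b is at 2664, 695 and 13.7.

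The ratio of library a to library b in UFM1-KO was 1.91 for MT-CO2, 2.999 for MT-ATP6 and 10.1 for MT-ATP8, whereas in the other lines it ran from 0.401 to 1.38 for these genes. Of 13900 mRNA features, 8 differed at least as much between the UFM1-KO libraries as MT-ATP8 did. The median log2 difference between the UFM1-KO libraries was -0.124 for proteins of up to 100 residues and 0.01 for those over 400. What the difference between these libraries comes from was not tested.

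With both libraries, UFM1-KO against WT gave log2 changes of 0.56 (SE 0.25) for MT-CO2, 1.14 (SE 0.36) for MT-ATP6 and 2.17 (SE 0.65) for MT-ATP8, and edgeR called 0 of 3 (adjusted p = 0.279, 0.124 and 0.104), beside 1.97% of all features. All 3 were at an unadjusted p under 0.05, and DESeq2 called 0 of 3. Without UFM1-KO library a the values were 0.02, 0.14 and -0.31, and without library b they were 0.96, 1.73 and 3.03 with 3 of 3 called. With no filter on low counts MT-ATP6 and MT-ATP8 were called (edgeR adjusted p = 0.048 and 0.0254), as they were with only these 2 lines in the fit (0.0206 and 0.00529). In UFSP2-KO against WT the changes were 0.01 (SE 0.25), -0.02 (SE 0.36) and 0.33 (SE 0.64). edgeR called 0 of 3 there beside 7.18% of features, with 0 at an unadjusted p under 0.05 and 0 by DESeq2. In UFM1-KO against UFSP2-KO, MT-ATP6 was the 1 of 3 called (log2 1.16, SE 0.37, edgeR adjusted p = 0.0404), beside 15.9% of features. MT-ATP8 at 1.84 (SE 0.65, edgeR adjusted p = 0.064; 0.0191 with no filter) and MT-CO2 at 0.55 (SE 0.25) did not pass. Without UFM1-KO library a the MT-ATP6 value was 0.16, and without UFSP2-KO library a it was 0.83, and the call was lost in both cases, as it was with DESeq2 (adjusted p = 0.238), with library size as the only scaling (edgeR adjusted p = 0.0679) and with only these 2 lines in the fit (0.0801).

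A joint model over all 18 libraries asked whether footprints changed by another amount than mRNA. For membrane footprints in UFM1-KO the footprint change less the mRNA change was -0.57 (SE 0.45) for MT-CO2, -0.87 (SE 0.47) for MT-ATP6 and -1.75 (SE 0.72) for MT-ATP8. edgeR called 0 of 3, beside 0% of features, with 1 of 3 at an unadjusted p under 0.05 and 0 called by DESeq2. Here too UFM1-KO mRNA library a enters every value: without it MT-ATP8 was at 0.69, and without library b MT-ATP8 was at -2.61 and was called. In UFSP2-KO the values were -0.18 (SE 0.45), -0.46 (SE 0.47) and -0.89 (SE 0.73), with 0 of 3 called beside 0.0792% of features, 0 at an unadjusted p under 0.05 and 0 by DESeq2. For cytosol footprints edgeR called 0 of 3 in both lines, beside 0% and 0.0158% of features, with 0 at an unadjusted p under 0.05 and 0 by DESeq2, and SEs reached 4.36 for MT-ATP8.

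Apart from the 6 listed entries, the footprint features whose pattern was most like the mean of the members over the 12 footprint libraries were ENST00000370509.4 (Pearson r = 0.9986) and ENST00000504734.4 (r = 0.9985). This is a description: 592 of 11059 features had an r over 0.98, and all points share the split into membrane and cytosol libraries.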

How the data were processed

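The 12 footprint tables and 6 mRNA tables held whole-number counts per Ensembl transcript as deposited, with a length in a second column. The aligner was TopHat2 2.1.1 and the build GRCh38, per the submitters' processing notes. For the counting program, the annotation and the treatment of multiply mapped reads, the answer is not given in the sources used here. Gene names are absent from the tables. The members' IDs and protein lengths were given with the choice of genes. Lists of other genes of the same complexes had been planned, but no table used here pairs transcript IDs with names, so they are not reported. The members were chosen with earlier results of these data known.

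Entries with identical counts in all libraries of an assay were merged, which left 14377 footprint features and 15444 mRNA features among 25629 entries matched between assays by ID and length. In R 4.3.3, counts were tested with edgeR 4.0.16 (quasi-likelihood test, filterByExpr with a minimum count of 10, TMM normalization, 1 coefficient per group) in 1 model over 12 footprint libraries (11065 features), 1 over 6 mRNA libraries (13900 features) and 1 joint model over 18 libraries (12629 features). A call is an adjusted p under 0.05 (Benjamini-Hochberg) over all features of a comparison. CPM used TMM factors and, as library size, the counts of merged features, for mRNA only among the matched entries. SEs were derived from the F statistic. Intervals are exact at 95%, and intervals and the limit for a count of 0 (3 counts) cover counting error only, since reads were not counted by molecular identifiers. Each member was named in every comparison. The 2 other features most like the members were named by ID. Alternatives were other scalings (1 without the 6 listed entries), no filter, DESeq2 1.42.0, a replicate block, unmerged entries, fewer groups in the fit, leaving out each library and, added after the data were seen, counting the entry listed for MT-CO1. The procedure was tested on simulated data. Sequences of the members are not printed here.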

Additional observations from a re-analysis of the deposited data

How the results depend on the processing

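The membrane calls (5 of 5 members in each line) and the counts of 0 for the ratio change, for UFM1-KO against WT in membrane footprints, for the cytosol between lines, for UFSP2-KO against WT in mRNA and for the remaining comparisons of footprints with mRNA were the same under every alternative run, apart from the entry listed for MT-CO1 adding 1 to the membrane calls. Of the log2 changes of single genes under an alternative, 1093 kept their side of the threshold, 31 came to pass it, 11 no longer passed it and 0 of those called changed sign. In UFSP2-KO against WT in membrane footprints, fitting only the groups compared gave 3 of 5 members called. In UFM1-KO against UFSP2-KO in membrane footprints DESeq2 called 1, library size only, no filter and the replicate block each gave 3 (MT-CO3 added, at 0.0109 with the block), only the groups compared gave 4, and leaving out one library gave 0 to 2. For UFM1-KO against WT in mRNA, no filter, the replicate block (MT-ATP6 at 0.00319, MT-ATP8 at 4.66e-06) and only the groups compared each gave 2 of 3, and leaving out one library gave 0 to 3. For UFM1-KO against UFSP2-KO in mRNA, library size only, DESeq2 and only the groups compared gave 0, no filter and the replicate block gave 2, and leaving out one library gave 0 to 3. For membrane footprints less mRNA in UFM1-KO the range on leaving out one library was 0 to 1. The replicate block changed no other count of calls, and called 0 of 5 in each cytosol comparison between lines. With the block the entry listed for MT-CO1 passed in UFM1-KO against UFSP2-KO in membrane footprints (edgeR adjusted p = 0.00631). No label pairs the letters a and b; the correlation of deviations from group means was over 0.1 in 7 of 15 footprint pairs (0.0323 to 0.221) and 0 of 3 mRNA pairs (-0.364 to 0.0517). All 15 footprint values were above 0, and the 3 between cytosol groups were all over 0.1 (0.138 to 0.221), so pairing there was not settled. With 1 library left in a group, its spread is assumed to equal that of the other groups.

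Counting the entry listed for MT-CO1 raised the membrane share of UFM1-KO over UFSP2-KO from 1.53 to 1.80. The cytosol share ratios ranged, on leaving out one library, from 0.601 to 4.73 (UFM1-KO over WT; 4.73 without WT library a), 0.398 to 5.56 (UFSP2-KO over WT; 5.56 without WT library a) and 0.464 to 2.77 (UFM1-KO over UFSP2-KO; 2.77 without UFSP2-KO library a). Scaling by library size only moved the median of all features by -0.14 (WT), -0.29 (UFM1-KO) and -0.19 (UFSP2-KO) in membrane against cytosol, and the share of calls that were higher from 67.5% to 56.5%, from 79.7% to 55.2% and from 67.1% to 54.8%. The same scaling moved that share from 19.2% to 46% for UFM1-KO against WT and from 48.5% to 64.8% for UFM1-KO against UFSP2-KO in the cytosol, and from 33.3% to 15.4% for UFSP2-KO against WT in mRNA, with medians moved by 0.14, 0.14 and -0.13. RLE size factors moved it from 37.3% to 47.8% for UFSP2-KO against WT in the cytosol. The limits are 2 libraries per group, 1 clone per knockout, few cytosol counts, 3 of 5 members measured in mRNA, and reads shared between overlapping genes and with nuclear copies. The causes of these changes were not tested.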
